A study of Mus musculus with 2 samples.

Results

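The 9 genes described here encode the cytoplasmic actins (Actb and Actg1) and the chains of non-muscle myosin II: the heavy chains Myh9, Myh10 and Myh14, the regulatory light chains Myl9, Myl12a and Myl12b, and the essential light chain Myl6. They were chosen by name, though with earlier results of these data known, and all 9 were found among the 43346 Ensembl genes of the tables. The tables come from total RNA longer than 200 nt of limbs of B6NCrl mice taken on embryonic day 13.5 (E13.5), with males and females pooled and 10 ng of RNA per library. There is 1 group, E13.5 limb, without treatment or genetic change, and its 2 libraries are numbered as biological replicates, although they carry the same donor entry. The labels do not name fore- or hindlimbs. Depth was 31927117 expected counts in replicate 1 and 43194518 in replicate 2, and Pearson's r of log2(TPM + 1) across genes, which are not independent replicates, was 0.995. With 1 group there is no contrast of conditions, so the questions are how abundant each gene was, how its paralogs stood to one another, which annotated transcripts carried its reads, and whether the libraries differed.

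Actin monomers assemble into filaments, and bipolar filaments of myosin II pull on them. Each myosin II molecule has a pair of heavy chains, which hold the motor and the rod, and each heavy chain binds an essential and a regulatory light chain. Phosphorylation of the regulatory light chain by kinases such as ROCK and myosin light chain kinase switches the motor on, and a myosin phosphatase reverses this. Non-muscle myosin II drives cytokinesis, cell migration and the tension of cell sheets. In a limb bud, genes of this set are used in mesenchyme, cartilage precursors, epidermis and vessels, though not each gene in each tissue. Sarcomeres of differentiating muscle use other members of both families.

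Levels are given in TPM (reads divided by transcript length, scaled to the same sum in each library), as the mean ± SD of the 2 libraries (n = 2). The order was Actb, Actg1, Myl6, Myl12a, Myl12b, Myl9, Myh10, Myh9 and Myh14. All 9 genes reached 1 TPM in both libraries, as did 34.6% of all Ensembl genes and 61.0% of protein-coding ones, and 7 of the 9 reached 100 TPM, as did 3.93% of all genes. Their median was 194 TPM, against 20.6 TPM for the protein-coding genes that reached 1 TPM. Together they held 0.984% ± 0.00206 of all TPM. A step down the order counted as past the spread if the libraries had 1 sign and the mean log2 ratio exceeded 2 times the combined SD between libraries of the 500 genes nearest in level. By this rule all 8 steps between neighbours were past the spread. The smallest steps were Myl12b over Myl9 (1.15-fold), Myl6 over Myl12a (1.26-fold) and Myl9 over Myh10 (1.30-fold). The first of these was within the spread when protein-coding entries alone were summed, at 1.10-fold. In a whole limb, fewer cells of a type and less RNA per cell cannot be told apart.

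**Figure D1:**
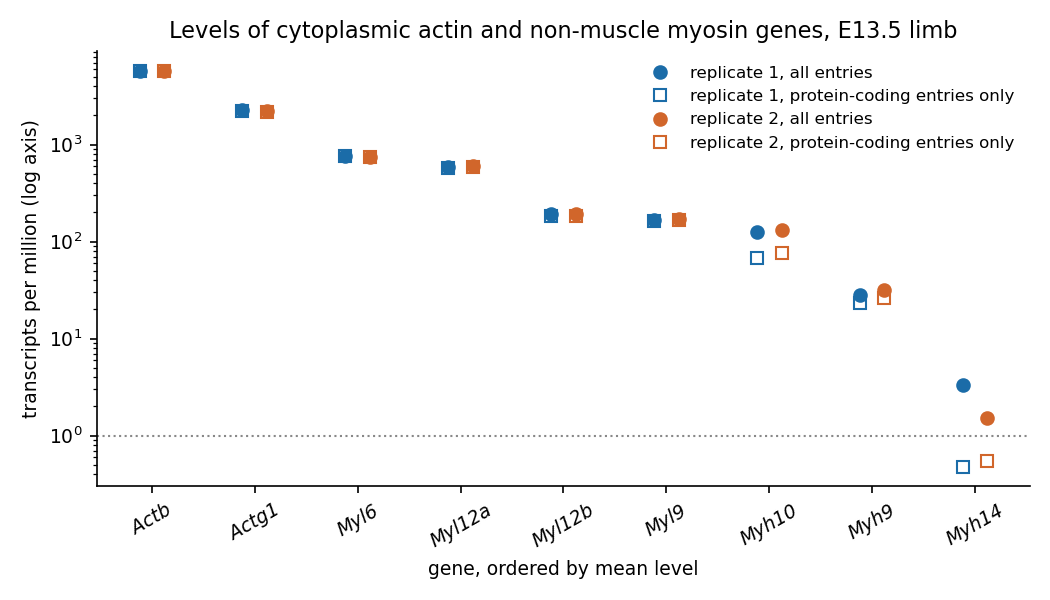
TPM of each gene (log axis) in replicate 1 (blue) and replicate 2 (orange), from all transcript entries (filled circles) and from protein-coding entries only (open squares), with a dotted line at 1 TPM. The values run from 5737 TPM for Actb down to 2.42 TPM for Myh14, and the open squares fall clearly below the circles for Myh10 and Myh14.

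Actb (chr5:142903115-142906754, mm10, minus strand) encodes beta-actin, and Actg1 (chr11:120345690-120348542, minus strand) encodes gamma-actin, the other cytoplasmic form. Actb had 5682 TPM in replicate 1 and 5792 TPM in replicate 2, from 215029 and 291135 expected counts. It ranked 7 among all genes and 3 among protein-coding genes, and it took 0.674% ± 0.00036 of all counts. Actg1 had 2266 TPM and 2193 TPM, from 84593 and 108799 counts, and ranked 30. Actb exceeded Actg1 by 2.51-fold in replicate 1 and 2.64-fold in replicate 2, with a mean log2 ratio of 1.36 against a limit of 0.16 for 2 combined spreads. Beta-actin therefore made up 72.0% ± 0.741 of cytoplasmic actin TPM and gamma-actin 28.0% ± 0.741.

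The 2 actin genes encode nearly the same protein from diverged DNA. Their coding sequences, 1125 nt each in GENCODE M21, were identical at 88.6% of bases, and 125 codons differed, but only 4 of the 375 codons differed in the residue they encode. All 4 lie in the first 11 codons, the amino-terminal end that marks the isoforms. These codons are shown because they carry the whole protein difference between the genes, with the bases that differ in capitals (5′ to 3′ on the coding strand, Actb at chr5:142905654-142905686 and Actg1 at chr11:120348059-120348091, both mm10, minus strand).
Actb: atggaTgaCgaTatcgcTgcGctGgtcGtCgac
Actg1: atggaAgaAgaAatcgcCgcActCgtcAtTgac
Aligned 3′ UTRs were identical at 44.6% of positions. No stretch of 100 nt, about the fragment length implied by the tables' effective lengths, was found in both Actb and Actg1, so reads of that length separate them.

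Copies elsewhere in the genome share more. For Actg1, 51.1% of the 100-nt stretches of its main transcript recur exactly in another gene of the tables, mostly in the processed pseudogene Gm12715, while for Actb 1.10% do, in the pseudogene Gm15725 and in Lrrc58. Of 12 annotated pseudogenes that match Actg1 at 90% identity or more over at least 200 nt, 7 are in the tables. Gm12715 held 480 and 623 expected counts in replicates 1 and 2 (22.4 and 21.9 TPM). Gm8399 held 5.28 and 4.49 TPM and Actg-ps1 1.55 and 2.30 TPM. All 7 together held 0.724% of the Actg1 count in replicate 1 and 0.720% in replicate 2, so adding them back moves Actg1 by less than its SD. The Actb pseudogene Gm15725 had 0 counts in both libraries. The protein-coding gene Lrrc58, which matches Actb at 90.6% over 1347 nt, held 8650 and 12204 counts (48.8 and 51.9 TPM). How many of these fell on the part like Actb was not tested. How reads were divided between the 2 actin genes and these copies was decided by the authors' model, and their values are uncertain for that reason.

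Almost all Actb reads went to 1 transcript. Actb-201 (6 exons, 1920 nt) took 99.56% of the gene's TPM in replicate 1 and 99.57% in replicate 2. Actg1 was divided between Actg1-202, with 63.5% and 63.8%, and Actg1-204, with 35.1% and 34.8%. Both Actg1 entries have the same coding sequence. Actg1-204 lies wholly within the exons of Actg1-202 and starts at its start codon, so the split does not separate proteins.

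The non-muscle heavy chains were far apart. Myh10 (chr11:68691559-68816632, plus strand), the heavy chain of myosin IIB, had 126 TPM in replicate 1 and 133 TPM in replicate 2, from 12918 and 18918 counts. Myh9 (chr15:77760587-77842175, minus strand), the heavy chain of myosin IIA, had 28.3 TPM and 31.7 TPM, from 3830 and 5700 counts. Myh14 (chr7:44605803-44670843, minus strand), the heavy chain of myosin IIC, had 3.33 TPM and 1.51 TPM, from 104 and 115 counts. Thus Myh10 made up 79.9% ± 0.0419 of heavy-chain TPM, Myh9 18.6% ± 0.811 and Myh14 1.51% ± 0.853. Myh10 exceeded Myh9 by 4.30-fold, and the log2 ratio was 2.15 and 2.06 in the libraries, against a limit of 0.23. Their coding sequences were identical at 73.9% of bases, and 0.299% of the 100-nt stretches of Myh10 recur in Myh9.

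Part of the Myh10 level rests on a short non-coding entry. Myh10-203, the main coding transcript (41 exons, 7791 nt), took 52.2% and 53.6% of the gene's TPM in the 2 libraries. Myh10-206, annotated as a processed transcript of 2 exons and 1811 nt, took 40.2% and 36.6%. It lies at the 3′ end of the gene, with 315 nt in the last coding exons and 1476 nt after the coding sequence, and all but 20 nt of it is within exons of Myh10-203. In expected counts the picture was different, since Myh10-206 held 1804 of 12918 counts in replicate 1 and 2300 of 18918 in replicate 2. Non-coding entries together held 44.2% ± 2.52 of Myh10 TPM but 15.5% of its counts. Over 9574 protein-coding genes with more than 1 transcript that reached 1 TPM, the median coding share of TPM was 91.0%, and 17.7% of these genes had under 60%, as Myh10 did with 54.0% and 57.6%. Summed over coding entries only, Myh10 stood at 72.1 ± 5.98 TPM and Myh9 at 24.9 ± 2.02 TPM, a ratio of 2.89-fold that was still past the spread.

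Myh10 is also known for a pair of short inserts in its motor domain that are spliced in mainly in nervous tissue. Among the entries of the gene that the tables list, Myh10-201 is the only one that has both inserts in GENCODE M21. Insert 1 has 30 nt (10 codons, chr11:68745935-68745964) and insert 2 has 63 nt (21 codons, chr11:68775365-68775427). They are shown, in capitals with 9 flanking coding bases on each side, because they are what separates the neural forms from Myh10-203 (5′ to 3′, mm10, plus strand).
Insert 1: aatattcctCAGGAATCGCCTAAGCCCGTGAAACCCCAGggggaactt
Insert 2: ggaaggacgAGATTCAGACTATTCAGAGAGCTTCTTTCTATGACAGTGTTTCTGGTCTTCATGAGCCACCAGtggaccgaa
Myh10-201 was listed at 0 expected counts in both libraries, which is how the model divided the reads it shares with Myh10-203 and is no count of reads over the inserts. The posterior estimates gave it 0.13% and 0.11% of the gene's TPM, with credibility intervals that reached up to 0.557 TPM in replicate 1 and 0.486 TPM in replicate 2. Insert 1 is also part of Myh10-204, a 1315-nt entry with 549 nt of its own, which held 19.4 and 11.3 counts, and the tables do not say whether any of these covered the insert. In the same libraries 5 of 6 neuron markers reached 1 TPM, as did 61.0% of all protein-coding genes. Stmn2 was the highest of them at 11.6 ± 0.778 TPM, and the synaptic gene Snap25 was lowest at 0.685 ± 0.134 TPM. Whether the amount of nerve tissue bears on the value of Myh10-201 was not tested. Myh10-202, which starts at another first exon, held 247 counts in replicate 1 and 1033 in replicate 2, or 1.23% and 3.67% of the gene's TPM.

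Myh9 had 1 coding entry. Myh9-201 (41 exons, 7433 nt) took 82.8% of the gene's TPM in each library and 93.6% of its counts in the mean. The rest was in 6 entries annotated as non-coding, of which the retained-intron transcript Myh9-206 held 11.3% of TPM in replicate 1 and 10.3% in replicate 2. That entry has 2322 of its 2980 nt outside the exons of Myh9-201.

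The Myh14 value is the least certain of the 9. Its counts were alike, 104 and 115, while its TPM was 2.21-fold higher in replicate 1. The effective length that the tables give for the gene was 1501 nt in replicate 1 and 2759 nt in replicate 2. Posterior mean TPM was 3.69 and 1.84, with credibility intervals of 2.58 to 4.98 and 1.16 to 2.56. A 471-nt entry that GENCODE M21 no longer lists held 57.7% of Myh14 TPM in replicate 1 and 42.5% in replicate 2, from 14.9 and 6.58 counts. A further such entry of 1438 nt held 27.93% and 21.04%. The full coding transcript Myh14-201 held 63.2 and 96.7 counts, which is 14.4% and 36.5% of TPM, or 0.48 and 0.55 TPM. Its posterior share was lower, 5.77% and 16.45%, and the credibility intervals of 0.0395 to 0.387 TPM in replicate 1 and 0.0922 to 0.506 TPM in replicate 2 lie below those deposited values. On the entries that M21 lists as coding, Myh14 therefore lay below 1 TPM in both libraries. Entries that M21 does not list have no type here and were left out of that sum. Myh9 exceeded Myh14 by 40.6-fold on coding entries, against 12.8-fold with every entry included. The value over every entry was 8.28-fold in replicate 1 and 19.8-fold in replicate 2.

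**Figure D2:**
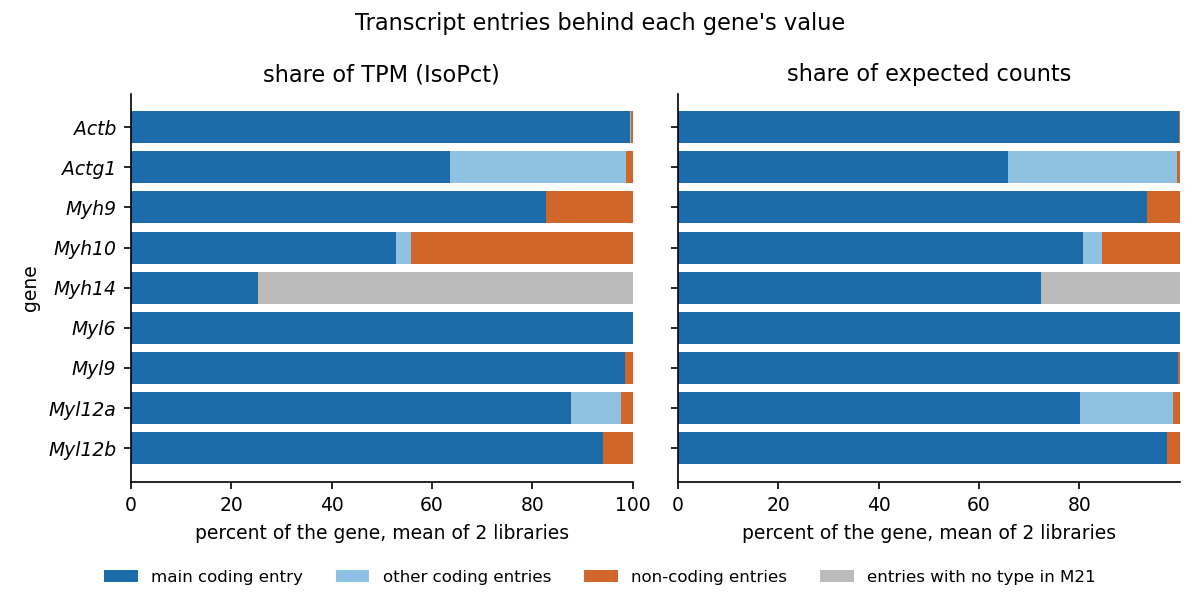
Percent of each gene's TPM (left) and of its expected counts (right), as the mean of 2 libraries, in the main coding entry, other coding entries, non-coding entries and entries that GENCODE M21 does not list. For Myh10 and Myh14 the main coding entry holds a much smaller share of TPM (52.9% and 25.4%) than of counts (80.7% and 72.4%).

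The regulatory light chains came in the order Myl12a, Myl12b and Myl9. Myl12a (chr17:70993656-71002878, minus strand) had 591 TPM in replicate 1 and 600 TPM in replicate 2. Its neighbour Myl12b (chr17:70973133-70990890, minus strand) had 194 TPM and 193 TPM. Myl9 (chr2:156775420-156781658, plus strand), which is also the regulatory light chain of smooth muscle myosin, had 167 TPM and 169 TPM. The libraries were within 2% of each other for all 3 genes, with fold differences in TPM of 0.986, 1.01 and 0.983 for replicate 1 over replicate 2. Myl12a made up 62.2% ± 0.153 of the TPM of the 3 genes, Myl12b 20.2% ± 0.230 and Myl9 17.6% ± 0.0770. Myl12a exceeded Myl12b by 3.07-fold (log2 ratio 1.61 and 1.63, limit 0.15), and Myl9 was lower than Myl12a with a log2 ratio of -1.82 (limit 0.15). The log2 ratio of Myl9 over Myl12b was -0.21, just past its limit of 0.15.

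The 3 regulatory light chains share the site that the kinases act on. The threonine and serine codons, numbers 19 and 20 when the start codon is 1, are given in capitals within 33 coding bases, to show how alike the genes are where the chain is switched (5′ to 3′, mm10: Myl9 at chr2:156778584-156778616, plus strand; Myl12a at chr17:70996809-70996841 and Myl12b at chr17:70977160-70977192, both minus strand).
Myl9: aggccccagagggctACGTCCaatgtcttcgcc
Myl12a: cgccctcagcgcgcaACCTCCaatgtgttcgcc
Myl12b: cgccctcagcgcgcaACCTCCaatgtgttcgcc
Myl12a and Myl12b have the same bases here. Over the whole 516-nt coding sequence they were identical at 96.5% of bases and differed in 4 encoded residues, while Myl9 differed from Myl12a in 10 and from Myl12b in 11. Even so, only 21 stretches of 100 nt were found in both Myl12a and Myl12b, 2.38% of those in the Myl12a transcript. Their 3′ UTRs differ in length, with 318 nt and 1191 nt in M21. For Myl9 no stretch recurred in another gene of the tables. The processed pseudogene Gm6517 held 11 and 12.0 counts (1.25 and 1.03 TPM), at most 0.244% of the count of Myl12a or Myl12b.

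Each regulatory light chain gene was carried mainly by 1 transcript. Myl12a-201 took 87.7% of TPM in replicate 1 and 87.9% in replicate 2, and Myl12a-206, which has the same coding sequence and other untranslated ends, took 9.45% and 9.65%. Myl12b-201 took 93.9% and 94.4%, and its remaining entries were 2 retained-intron transcripts. Myl9-201 took 98.4% and 98.6%. The tables give Myl12b-201 a length of 1253 nt, whereas M21 extends it to 2143 nt, so the Myl12b level is tied to the older and shorter model.

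Myl6 (chr10:128490860-128494145, minus strand), the essential light chain shared by non-muscle and smooth muscle myosin, had 764 TPM in replicate 1 and 737 TPM in replicate 2, from 9008 and 11547 counts. Its paralog Myl6b had 1.5 TPM and 1.83 TPM, so Myl6 exceeded it by 427-fold with 0.1 TPM added to each. Alternative splicing of a short exon is known to give Myl6 a pair of proteins with different carboxyl ends. The tables hold 1 entry, Myl6-201, which skips that exon, so its 100% share says nothing of the balance of forms. The Myl6 level is likewise tied to this 1 model. GENCODE M21 also lists Myl6-206, with the same coding length of 453 nt, and the last 26 coding bases of both are shown because they are the part of the coding sequence that differs (5′ to 3′, mm10, minus strand, chr10:128491008-128491033 and chr10:128491739-128491764, differing bases in capitals).
Myl6-201: AGCttgtCCggATGGtGctgAATggC
Myl6-206: CATttgtGAggCATAtCctgTCGggG
In Myl6, 26.5% of 100-nt stretches recur in processed pseudogenes. Of 5 found, all in the tables, Gm10080 (11.9 and 13.2 TPM), Gm5526 (10.9 and 7.77 TPM) and Gm5915 (6.91 and 7.97 TPM) reached 1 TPM in both libraries. All 5 together held 3.01% of the Myl6 count in replicate 1 and 2.96% in replicate 2, and with them Myl6 would stand at 782 TPM in place of 751 TPM.

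**Figure D3:**
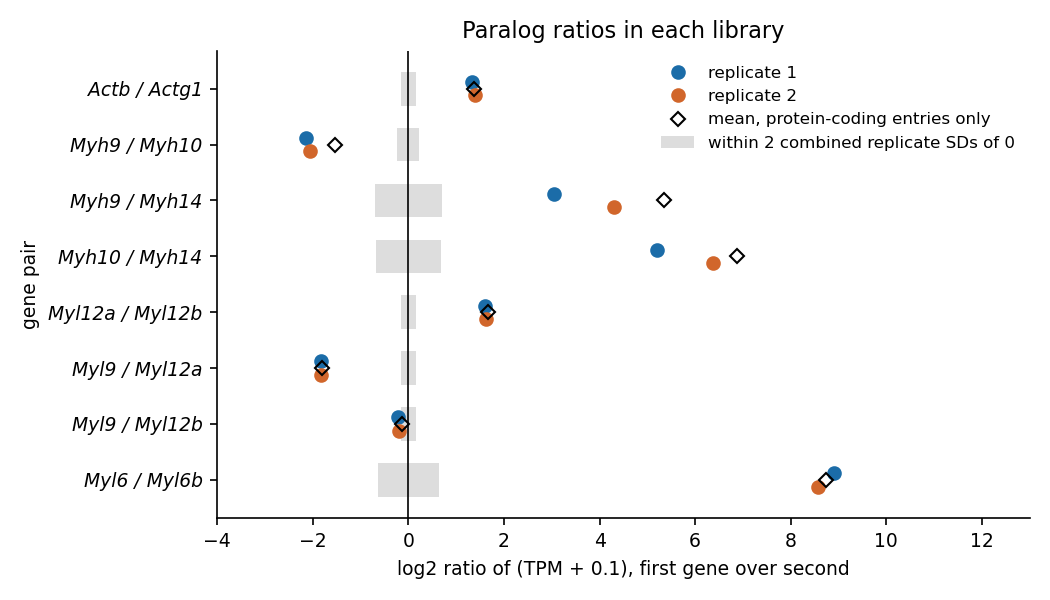
Log2 ratio of TPM + 0.1 for 8 pairs of paralogs in replicate 1 (blue) and replicate 2 (orange), with the mean over protein-coding entries only (open diamonds) and 2 combined replicate SDs around 0 (grey bars). Both libraries lie outside the grey bar on the same side in all 8 pairs, and only Myl9 over Myl12b comes within it on coding entries (-0.14).

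Summed over the members of each role, light chain transcripts outnumbered heavy chain transcripts. The 3 regulatory light chains added up to 952 TPM in replicate 1 and 962 TPM in replicate 2, Myl6 to 764 and 737 TPM, and the 3 heavy chains to 157 and 166 TPM. Regulatory light chains thus stood at 5.92 ± 0.177 per heavy chain transcript, and Myl6 at 4.65 ± 0.290. Between the light chain classes the ratio of regulatory to essential was 1.28 ± 0.0417. The 2 actins stood at 49.3 ± 1.68 transcripts per heavy chain transcript. Light chains are shared with smooth muscle myosin, and Myl6 also binds unconventional myosins, so these sums compare transcripts and not parts of 1 molecule. On coding entries only the ratios to heavy chains were higher, at 9.57 for regulatory chains, 7.73 for Myl6 and 81.5 for actins, since the heavy chain sum fell to 91.8 and 103 TPM.

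Muscle paralogs were next to these genes in the same tissue. The 4 muscle actins were led by Actc1 (689 ± 4.07 TPM), the cardiac form that embryonic skeletal muscle uses, and Acta1 (335 ± 8.25 TPM), the skeletal form. Acta2, of vascular smooth muscle, had 232 ± 0.969 TPM and Actg2, of visceral smooth muscle, 2.59 ± 0.311 TPM. Actb exceeded Actc1 by 8.32-fold and Acta2 by 24.8-fold. Actg1 exceeded Actg2 by 831-fold with 0.1 TPM added and by 622-fold with 1 TPM added. Actg2 rested on 65 counts in replicate 1 and 73 in replicate 2. Actb and Actg1 held 86.4% ± 0.00662 of the TPM of all 6 actin genes.

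Heavy chains were less one-sided. Of 10 muscle and smooth muscle heavy chain genes 5 reached 1 TPM in both libraries, as did 61.0% of all protein-coding genes. The highest were the embryonic Myh3 (77.4 ± 9.81 TPM), the perinatal Myh8 (21.3 ± 2.15 TPM), the slow Myh7 (11.6 ± 1.48 TPM) and Myh7b (2.68 ± 0.594 TPM). Myh2, an adult fast form, was lowest at 0.115 ± 0.0212 TPM. Myh10 exceeded Myh3 by 1.67-fold over all entries (log2 0.74, limit 0.18), but on coding entries alone the log2 ratio was -0.10, within the spread. Myh9, Myh10 and Myh14 held 58.3% ± 2.14 of the TPM of all 13 heavy chain genes, and 46.2% ± 1.02 on coding entries alone. The smooth muscle heavy chain Myh11 stood at 0.28 TPM in replicate 1 and 0.32 TPM in replicate 2, and Myh9 exceeded it by 75.3-fold with 0.1 TPM added and by 23.8-fold with 1 TPM added. Among 8 other light chain genes 5 reached 1 TPM, beside the same share of 61.0%. These were led by Myl1 (323 ± 5.04 TPM), Mylpf (272 ± 3.86 TPM), Myl4 (106 ± 4.34 TPM) and Myl3 (3.23 ± 0.537 TPM), while Myl10 was listed at 0. The 4 non-muscle light chain genes held 70.7% ± 0.555 of light chain TPM.

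The listed regulators of these proteins all reached 1 TPM, a level that 61.0% of all protein-coding genes reached. The same share stands beside the counts of the lists that follow. The 20 genes of small GTPase signalling and light chain phosphorylation had a median of 26.7 TPM. The GTPases Rhoa (354 ± 2.02 TPM) and Rhoc (167 ± 0.184 TPM) were highest, followed by Ppp1r14b (124 ± 8.60 TPM), an inhibitor of myosin phosphatase, and Arhgef2 (86.5 ± 0.509 TPM), an exchange factor for RhoA. The lowest was Mylk (4.58 ± 0.163 TPM), which encodes myosin light chain kinase. The 3 genes of the MRTF and SRF pathway, which senses actin monomers and switches on actin genes, had Mrtfa at 19.9 ± 2.09 TPM, Mrtfb at 19.5 ± 0.537 TPM and Srf at 3.34 ± 0.0566 TPM.

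Genes that handle actin monomers were all detected. Each of the 13 reached 1 TPM, with a median of 157 TPM. The thymosins Tmsb10 (2004 ± 1.58 TPM) and Tmsb4x (1940 ± 47.0 TPM), which sequester monomers, the severing protein cofilin Cfl1 (1756 ± 34.2 TPM) and the profilin Pfn1 (1377 ± 23.8 TPM) led, and Cap2 was lowest (14.8 ± 1.12 TPM). All 23 genes of filament nucleation and elongation were detected (median 60.2 TPM). The Arp2/3 subunits Arpc2 (321 ± 3.80 TPM), Arpc4 (321 ± 2.81 TPM), Actr3 (208 ± 3.99 TPM) and Arpc5 (175 ± 1.66 TPM) were highest, and the formin Diaph2 was lowest (3.81 ± 0.0212 TPM).

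All 16 genes of crosslinking, capping and anchoring were detected (median 96.1 TPM). The bundling protein fascin Fscn1 had 353 ± 3.74 TPM, the capping subunit Capzb 332 ± 6.60 TPM, filamin Flna 245 ± 23.5 TPM and the alpha-actinin Actn4 229 ± 15.7 TPM. S100a4, a calcium-binding protein that binds the Myh9 heavy chain, was lowest at 5.66 ± 0.177 TPM. The 13 unconventional myosins, which lie outside the myosin II class, were detected as well but were lower (median 14.3 TPM). Myo18a had 31.8 ± 3.24 TPM, Myo1c 30 ± 2.28 TPM and Myo10 25.9 ± 1.07 TPM, and Myo1d was lowest at 5.99 ± 0.665 TPM.

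**Figure D4:**
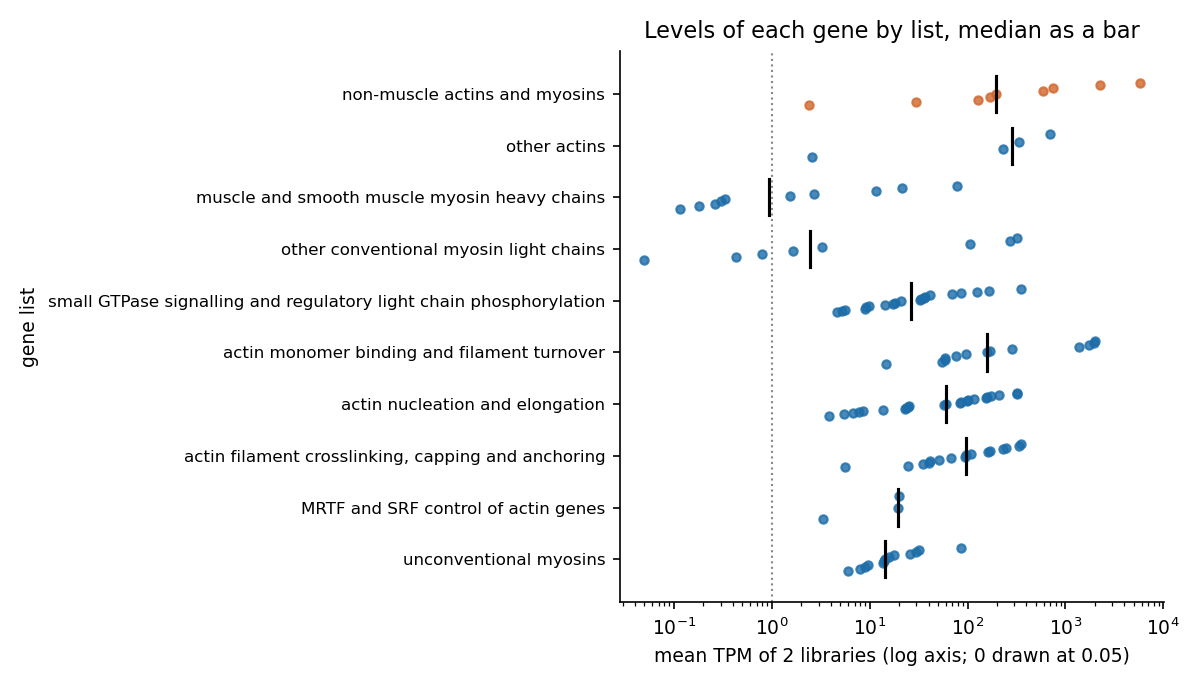
Mean TPM of 2 libraries (log axis) for each gene of the 9 actin and non-muscle myosin genes (orange) and of 9 related lists (blue), with the median of each list as a black bar and 1 TPM as a dotted line. Muscle heavy chains and other light chains straddle 1 TPM, with medians of 0.933 and 2.45 TPM, while every gene of the 6 lists of regulators, actin binding proteins and unconventional myosins lies to the right of the line.

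Between the libraries, none of the 9 genes differed by more than 2 SDs of the 500 genes nearest in count, while 4.27% of the 17982 genes that averaged 10 counts or more did. The ratio used expected counts scaled by TMM, with 0.5 added. The log2 ratio of replicate 1 over replicate 2 was -0.0057 for Actb, 0.07 for Actg1 and for Myl6, -0.0039 for Myl9, -0.0041 for Myl12a, 0.03 for Myl12b, -0.12 for Myh10, -0.14 for Myh9 and 0.29 for Myh14. Myh9 and Myh10, the longest of the well-counted members, were the lowest. Of the deposited TPM values, which the tables scale by their own effective lengths, only Myh14 went past 2 SDs (log2 ratio 1.09).

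Of 107 related genes with enough counts, 9 differed by more than 2 SDs (8.41%), all lower in replicate 1, where 2.54% of all tested genes were lower and 1.72% higher. Among them were Myh3, Myh7, Cdc42bpb, Daam2, Flna, Vcl, Tln1 and Mrtfa, and all 9 had ratios of replicate 1 over replicate 2 between 0.821 (Cdc42bpb) and 0.893 (Tln1). For Tln1, TPM went the other way, with 52.1 in replicate 1 and 49.5 in replicate 2. Effective length was 4 kb or more in 8 of the 9, and the ratios of all genes moved with length. The median log2 ratio was 0.05 over 2775 genes under 1 kb and -0.07 over 2964 genes of 4 kb or more, of which 6.58% were lower in replicate 1 by more than 2 SDs. The part of length in these differences was not tested. The forelimb factor Tbx5 had 25.2 TPM in replicate 1 and 36.5 TPM in replicate 2 and the hindlimb factor Pitx1 had 90.4 and 73.8 TPM, both past 2 SDs, and the part of the mix of limbs was not tested either. All 6 epidermis markers had a log2 ratio below 0, with Krt5 (-0.22) and Trp63 (-0.27) past 2 SDs. Of the 8 skeletal muscle markers 2 were lower past 2 SDs, Myod1 (-0.21) and Myh3. Ckm (0.40), Tnnc1 (0.04) and Actc1 (0.03) of that list were above 0, within 2 SDs. Other markers past 2 SDs went both ways. Cnn1 (1.01), Pf4 (0.33) and Hoxd13 (0.21) were higher in replicate 1, and Msx1 (-0.29) and Pdgfrb (-0.19) were lower. The part of the mix of cell types was not tested.

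**Figure D5:**
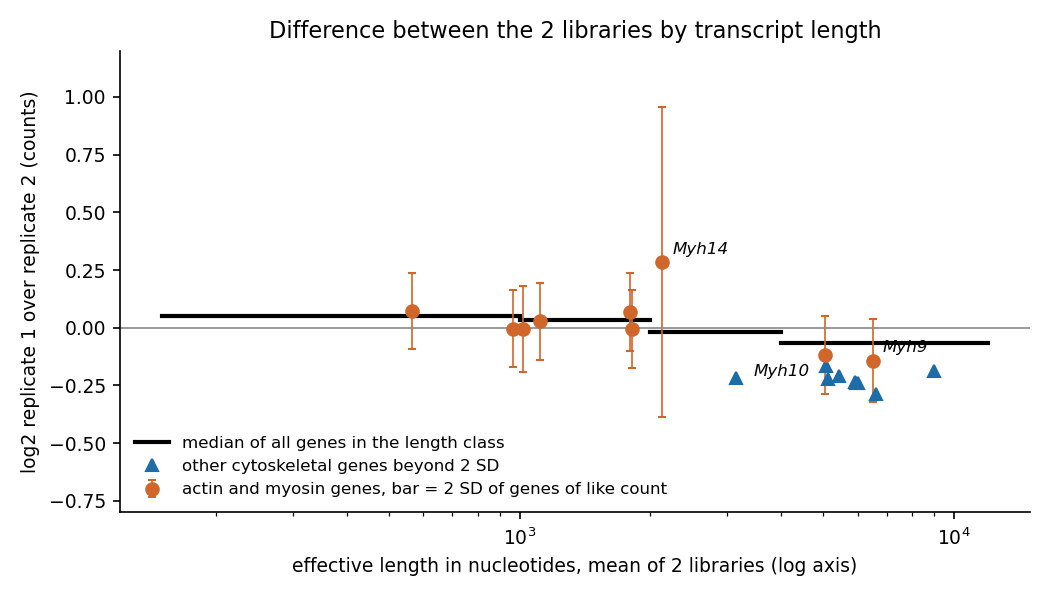
Log2 ratio of replicate 1 over replicate 2 in TMM-scaled counts against effective length (log axis) for the 9 actin and non-muscle myosin genes (orange, with bars of 2 SDs of genes of like count), the 9 related genes past 2 SDs (blue triangles) and the median of all tested genes in 4 length classes (black lines). Every orange bar crosses 0, and the black lines step down from 0.05 to -0.07 with length.

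Markers of the cell types in a limb were looked at beside these values. Each of the 7 limb mesenchyme, 8 skeletal muscle, 6 epidermis, 5 endothelium and 5 macrophage markers reached 1 TPM, with medians of 81.7, 231, 120, 29.2 and 26.9 TPM. Of the 8 smooth muscle and pericyte markers 7 did (median 16.9 TPM), and Myh11 did not. Among the smooth muscle genes Acta2 had 232 TPM but Tagln 13.6 ± 0.841 TPM and Cnn1 1.88 ± 0.877 TPM. How much of the actin and myosin RNA each cell type supplied was not tested.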

How the data were processed

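Total RNA-seq tables of 2 libraries of E13.5 limb were used. Build mm10 and annotation GENCODE M4 are stated in the deposited text files; the aligner, quantifier and strandedness were not given in the sources used here. The authors deposited expected counts, estimates in which a model divides reads among transcripts, TPM and FPKM, which divide them by effective length, and IsoPct, the percent of a gene's TPM in each transcript, per the file headers. Symbols matched 42462 of the 43346 Ensembl genes. Positions, transcript types and sequences came from GENCODE M21 (mm10).

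Pair ratios used log2(TPM + 0.1); the spread of counts was taken after scaling by TMM. Between libraries, counts were scaled by TMM (edgeR 4.0.16, counts rounded) over 17441 genes (10 counts or more per library), with a biological coefficient of variation of 5.19%. No p-value was computed. Copies were found with BLAST 2.17.0. The between-library step was tested on simulated data. Spike-ins and 26248 rows with bare numbers (0.000187% of counts) were left out.

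Members, 9 related lists, 7 marker lists and pairs were chosen with earlier results of these data known. Named were the members, genes of pairs, the 4 highest and the lowest of each related list, expressed pseudogenes, and (marker lists being given mainly as counts) transcripts of at least 5% of a gene's TPM; others were named for their values, and a few genes are not reported here. Alternatives were FPKM, posterior means, counts, other pseudocounts and scalings, coding entries only, other detection levels and each library alone.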

Additional observations from a re-analysis of the deposited data

How the results depend on the processing

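Of the 8 paralog pairs, 7 kept their direction and stayed past the spread with 1 TPM added, on FPKM, expected counts, posterior means and coding entries, and in each library alone. Myl9 over Myl12b kept its direction but fell within the spread on coding entries (-0.14). Myh10 over Myh3 reversed to -0.10 on coding entries, within the spread. Summed ratios depended most on the choice of measure. Regulatory light chains over heavy chains were 1.13 on expected counts and 9.57 on coding entries, Myl6 over heavy chains 0.501 and 7.73, actins over heavy chains 17.0 and 81.5, and regulatory over essential light chains 2.26 on expected counts. Expected counts are not divided by length, and coding entries leave out Myh10-206. The count of members that differ between libraries was 0 under TMM, DESeq2 size factors, total counts, the spike-in total and no filter, and 1, Myh14, for deposited TPM. These scalings moved the median ratio of all genes by at most 0.03 on the log2 scale.

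All 9 members and 102 of 110 related genes reached 1 TPM in both libraries, as did 61.0% of all protein-coding genes. Myh14 rests on about 110 counts per library, and its level was 2.42 TPM over all entries and 0.515 TPM on coding entries. The coding value leaves out Myh14 entries that GENCODE M21 does not list, whose type is not known here. Deposited values divide shared reads by a model, so Actg1, Myl6 and the Actg1 and Myh10 transcripts carry more uncertainty than their SDs show. With 2 libraries, an SD has 1 degree of freedom and spreads were borrowed from genes of like level. No paired analysis was possible because the 2 libraries form 1 group.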
